A study of Mus musculus with 6 samples.

Results

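Imprinted genes are read from only 1 of the 2 parental copies of a chromosome, and many of them set how much a tissue grows. The 10 imprinted growth-control genes described here were taken by symbol from the count table of sorted hematopoietic stem cells (HSCs), and all 10 were found among its 34573 genes. They were *Meg3*, *H19*, *Cdkn1c*, *Grb10* and *Igf2r*, which are known as maternally expressed, and *Peg3*, *Ndn*, *Plagl1*, *Mest* and *Dlk1*, which are known as paternally expressed. Of these, 9 had enough reads to be tested and *Plagl1* did not. The libraries were 3 from mice in which *Rpl22*, the gene of a ribosomal protein, was ablated in the germline (Rpl22-/-, labelled Rpl22 KO) and 3 from Rpl22+/+ mice (labelled Rpl22 WT). The mice of both groups were young adults backcrossed to C57BL/6, and no other allele or agent was given for either group. HSCs were lineage-negative Kit+ Sca1+ CD48-CD150+ cells sorted from bone marrow, and poly(A) RNA was sequenced. The number and the sex of the animals behind each library were not given in the sources used here, so the p-values measure the spread between these libraries.

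The genes form a network with opposing roles. IGF2, the fetal growth factor, signals through the IGF1 and insulin receptors, IGF2R removes it, and GRB10 damps the receptors from within the cell. *Cdkn1c* encodes p57, a CDK inhibitor, and *Ndn* encodes necdin, a growth suppressor, and both are known to hold adult HSCs in quiescence. *Meg3* and *H19* are long noncoding RNAs made from the maternal copies of the Dlk1-Meg3 and Igf2-H19 clusters, which are known to restrain growth signalling and to keep HSCs at rest. Read counts do not tell the parental copies apart, so the values below are levels of both copies together.

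*Meg3* and *Peg3* carried the clearest differences, and the stretches around their start sites are shown because the data turn on these 2 genes. *Meg3* lies at chr12:109541001-109571726 on the plus strand of GRCm38 and has 18089 bases of exon in 8 blocks. *Peg3* lies at chr7:6703892-6730431 on the minus strand, with 13324 bases of exon in 10 blocks. Each RefSeq window (GRCm38.p6) runs from 250 bases before the start to 50 bases after it, and is given 5′ to 3′ on the gene's strand, at chr12:109540746-109541045 for *Meg3* (plus) and chr7:6730370-6730669 for *Peg3* (minus). Capitals mark the cAMP response element TGACGTCA, the CCAAT box (ATTGG where it lies on the other strand) and, in *Meg3*, a run that holds the TATA box TATAAA on both strands.
Meg3: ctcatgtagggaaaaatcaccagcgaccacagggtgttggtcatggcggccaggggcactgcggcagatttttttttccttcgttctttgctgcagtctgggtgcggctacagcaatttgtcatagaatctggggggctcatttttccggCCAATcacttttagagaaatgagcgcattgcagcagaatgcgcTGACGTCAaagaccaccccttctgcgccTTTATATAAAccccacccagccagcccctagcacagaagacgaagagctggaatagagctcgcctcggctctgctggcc
Peg3: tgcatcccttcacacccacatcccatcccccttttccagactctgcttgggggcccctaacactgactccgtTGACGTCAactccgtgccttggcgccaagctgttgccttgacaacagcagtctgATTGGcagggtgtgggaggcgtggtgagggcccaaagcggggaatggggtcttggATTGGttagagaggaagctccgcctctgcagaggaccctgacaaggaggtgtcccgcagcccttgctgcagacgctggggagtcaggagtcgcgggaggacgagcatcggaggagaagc
The palindrome TGACGTCA stood 57 bases before the *Meg3* start and 178 bases before the *Peg3* start. It was present in 588 of 32851 windows of this length on either strand (1.79%). None of the windows of *Ndn*, *Grb10*, *Plagl1*, *Igf2r*, *Mest* and *Dlk1* or the second *Meg3* window held it, and *H19* and *Cdkn1c* had no window to search. The shorter TGACG was also found in windows of *Grb10*, *Igf2r* and *Dlk1*. CCAAT was present in 37.4% of all windows and TATAAA in 13.6%, again on either strand. A match describes the letters only, and binding in these cells was not measured. The 8 motifs searched were chosen with the expression values known and also included GGGCGG (35.7% of windows), CCATNTT (16.1%), CACGTG (7.15%), TGACG, which lies within TGACGTCA (20.8%), and the NRF1 motif (0.971%). Each of the pair of windows printed here held 13 CpG sites and the second *Meg3* window 1, against a median of 7.0 over all windows. Of all windows 62.1% held fewer than 13, and the windows of the other genes held from 8 (*Mest*) to 45 (*Grb10*). *Meg3* also hosts miRNAs, whose mature sequences from RefSeq are given with the seed in capitals.
mmu-miR-770-5p: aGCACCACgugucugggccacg
mmu-miR-770-3p: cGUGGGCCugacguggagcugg
mmu-miR-1906: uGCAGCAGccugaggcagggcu
Poly(A) libraries do not measure mature miRNAs, and the hairpin gene *Mir770* had 0 reads in all 6 libraries.

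The libraries held between 9321123 and 13385850 reads on genes, with the lowest total in Rpl22+/+ replicate 3. For *Rpl22* itself, 449, 527 and 546 reads were left in Rpl22-/- cells against 6890, 7001 and 5031 in Rpl22+/+ cells, a log2 fold change of -3.75 (SE 0.105, adjusted p = 2.97e-12 in edgeR). The summed level of 10 HSC markers was 2180 to 2380 CPM (counts scaled by library size with TMM factors) in Rpl22-/- and 2350 to 2420 CPM in Rpl22+/+ libraries, and *Cd48*, which the gate removes, was at 4.89 to 7.30 CPM over all 6. Summed markers of other cells were 1260 to 1430 CPM against 1000 to 1150 for 8 megakaryocyte genes, of which *Pf4*, *Itga2b*, *Gp1ba*, *Gp1bb* and *Gp9* were called higher and *Gp6* was at 0. Of those 5, *Gp1bb* kept its call under all 15 alternatives, *Itga2b* and *Gp1ba* under 13, *Gp9* under 8 and *Pf4* under 7. The 8 neutrophil genes summed to 96.5 to 211 CPM against 66.1 to 104, with *Camp* called higher (in 8 of 14 alternatives). The sum of 211 was in Rpl22-/- replicate 2, where *Mpo* alone was at 101 CPM. The 5 endothelial genes summed to 109 to 112 CPM against 89.8 to 107, the 6 B cell genes to 24.6 to 28.2 against 21.2 to 23.4 with *Ms4a1* at 0, and the 6 T cell genes to 3.35 to 5.09 against 3.93 to 6.07 with *Cd3e* and *Trac* at 0. The erythroid genes (6 of 8 in the table) gave 27.2 to 31.5 CPM against 26.7 to 28.5, and the 2 progenitor markers 313 to 382 against 368 to 395. Y-linked genes were read in all 6 libraries, and their sum with *Xist* was 234 to 308 CPM against 287 to 340. Within that sum *Xist* was higher in each Rpl22-/- library, with 48, 41 and 74 reads against 17, 35 and 20 (log2 fold change 1.05, adjusted p = 0.0743). *Eif2s3y* was lower in each (-0.38, adjusted p = 0.0514), and *Ddx3y* (-0.19), *Kdm5d* (-0.13) and *Uty* (-0.18) overlapped. None of these passed, and the part of sex in the differences was not tested.

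In Rpl22+/+ HSCs the 10 genes spanned a wide range of levels. Per kilobase of exon, *Grb10* stood highest at 19.8 ± 1.90 RPKM (SD, n = 3), and *Cdkn1c* followed at 8.86 ± 1.35. *Ndn* at 5.09 ± 0.30 and *Igf2r* at 4.75 ± 0.778 overlapped between libraries and could not be ordered. *Meg3* was at 2.27 ± 0.137 RPKM and *Mest* at 1.32 ± 0.0738, each apart from its neighbours in the order. *Dlk1* (0.426 ± 0.247), *H19* (0.386 ± 0.196), *Peg3* (0.250 ± 0.0415) and *Plagl1* (0.122 ± 0.125) formed the bottom of the range, and each overlapped the next. In Rpl22-/- HSCs *Igf2r* at 4.03 ± 0.555 RPKM and *Ndn* at 3.77 ± 0.0957 overlapped again. *Mest* at 1.63 ± 0.119 RPKM stood above *Meg3* at 0.730 ± 0.515, and no *Meg3* library was above 1.30 RPKM. This order depends on the exon length used, the union of annotated exons, 18089 bases for *Meg3* and 3945 for *Mest*. In CPM the Rpl22-/- mean of *Meg3* was above that of *Mest* (13.2 against 6.43), with overlap between libraries. In Rpl22+/+ HSCs *Meg3*, at 41.0 CPM, was above *Cdkn1c* (18.1) and *Ndn* (18.8).

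**Figure D1:**
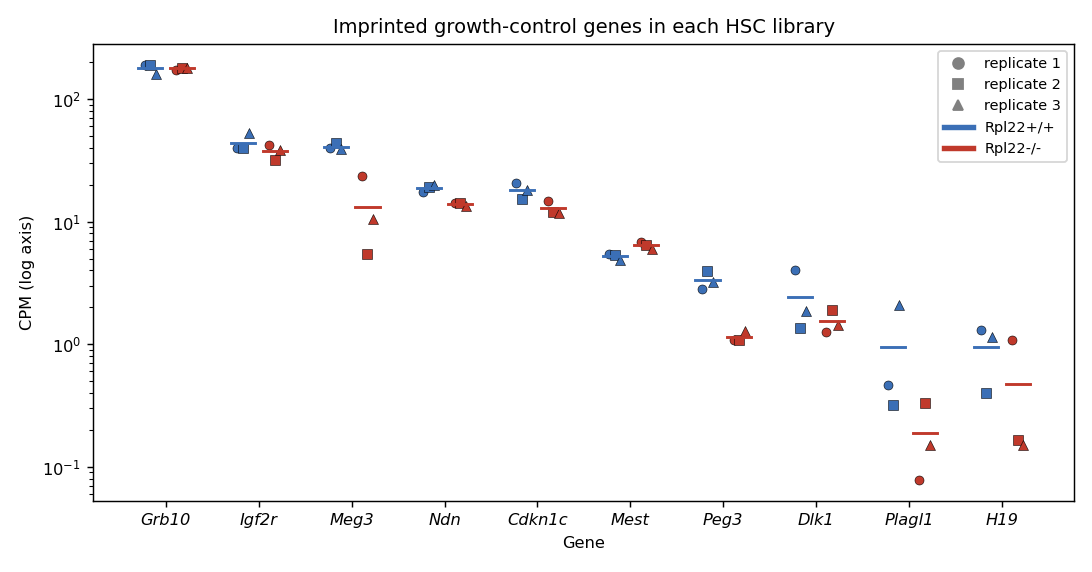
Level of each of the 10 imprinted genes in CPM on a log axis, by gene. Points are single libraries (shape gives the replicate number, blue Rpl22+/+ and red Rpl22-/-) and lines are group means. The *Meg3* points of Rpl22-/- lie between 5.49 and 23.5 CPM, all below the Rpl22+/+ points.

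Across the 9 genes tested, 2 were called lower in Rpl22-/- HSCs at an adjusted p below 0.05, *Meg3* and *Peg3*, and 0 were called higher (edgeR quasi-likelihood test; 4 genes had an unadjusted p below 0.05, as had 22.3% of all genes tested). DESeq2 called only *Peg3* among them, and limma-voom called 2. Of all 14004 genes tested, 5.57% were called in either direction, 2.29% lower and 3.28% higher. The log2 fold change was negative for 8 of the 9 genes, and their median was -0.50, against -0.0068 over all genes tested. The Rpl22-/- libraries all lay below the Rpl22+/+ libraries for 4 of the 9 (13.6% of all genes tested) and all above for 1 (13.3%). By parent of origin, the 5 maternally expressed genes all had negative values and 1 was called, and of the 4 paternally expressed genes tested 3 had negative values and 1 was called.

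**Figure D2:**
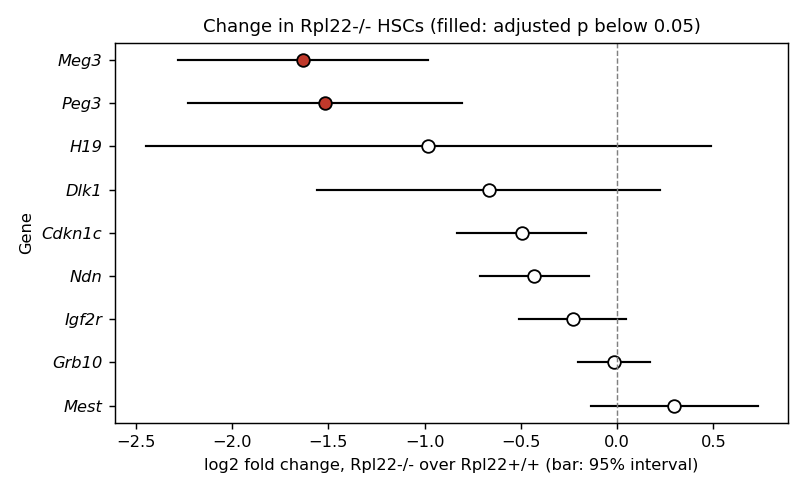
The log2 fold change of the 9 tested genes, Rpl22-/- over Rpl22+/+ (x axis), by gene, with 95% intervals from edgeR as bars. Filled points, *Meg3* at -1.63 and *Peg3* at -1.52, passed an adjusted p of 0.05. The intervals of *Ndn* and *Cdkn1c* also lie below 0.

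*Meg3*, a noncoding RNA, fell in Rpl22-/- HSCs. Its reads were 302, 66 and 139 in Rpl22-/- replicates 1 to 3 and 520, 546 and 377 in Rpl22+/+ replicates 1 to 3, which came to 23.5, 5.49 and 10.6 CPM against 39.9, 43.8 and 39.2 CPM. Each Rpl22-/- library was below each Rpl22+/+ library, and replicate 2 was the lowest. The means were 13.2 ± 9.31 and 41.0 ± 2.47 CPM (SD, n = 3), a level 3.10 times lower in Rpl22-/- HSCs (log2 fold change -1.63, SE 0.306, 95% interval -2.28 to -0.98, adjusted p = 0.00904).

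The Rpl22-/- libraries also spread widely in *Meg3*. The highest of them was 4.28 times the lowest, against 1.12 times in Rpl22+/+. On the log2 CPM scale the SD was 1.03 in Rpl22-/- and 0.085 in Rpl22+/+. Of 2147 genes within 0.5 of *Meg3* in average log2 CPM, 0 had a larger SD in the Rpl22-/- libraries, while in Rpl22+/+ 27.3% had a smaller one. Without Rpl22-/- replicate 1 the difference grew to 5.06 times lower, and without replicate 2, the library with the high *Mpo*, it was 2.41 times lower (adjusted p = 0.0113). Without replicate 3 it was 2.81 times lower and no longer passed (adjusted p = 0.0743), as with DESeq2 (3.10 times, adjusted p = 0.0606). Over the 15 alternatives the adjusted p ran from 2.37e-28 to 0.0743, and 13 of them kept the call. The annotation places *Gm26906*, a noncoding gene on the opposite strand, over 6.8% of the *Meg3* exon bases, and the strand setting of the counts was not stated.

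*H19*, the maternal RNA of the Igf2-H19 cluster (chr7:142575529-142578143, minus), was near the limit of detection. It had 14, 2 and 2 reads in Rpl22-/- and 17, 5 and 11 in Rpl22+/+. The groups overlapped, since Rpl22-/- replicate 1 lay within the range of the Rpl22+/+ libraries. At 0.470 ± 0.538 against 0.951 ± 0.483 CPM, a log2 fold change of -0.98 with an interval of -2.45 to 0.48 (adjusted p = 0.433), a difference was not detected at these counts. The value turned on single libraries, at -2.49 without Rpl22-/- replicate 1 (adjusted p = 0.0596) and -0.56 without Rpl22-/- replicate 3 (0.731). The same library, replicate 1, was the highest Rpl22-/- library in both *Meg3* and *H19*.

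*Peg3*, a zinc finger gene of the paternal copy known for roles in cell survival and maternal behaviour, fell from a low level. Reads numbered 14, 13 and 17 in Rpl22-/- and 37, 49 and 31 in Rpl22+/+. The Rpl22-/- values were tight and all below the lowest Rpl22+/+ value, at 1.16 ± 0.118 against 3.33 ± 0.553 CPM. The level was 2.87 times lower (log2 fold change -1.52, SE 0.335, interval -2.23 to -0.81, adjusted p = 0.0187). The call rested on few reads, and 5 of the 6 fits that left out 1 library lost it, those without Rpl22-/- replicate 2 or 3 or without any 1 of the Rpl22+/+ replicates (adjusted p 0.0521 to 0.0954), at 2.60 to 3.09 times lower. The fit without Rpl22-/- replicate 1 kept it (2.78 times lower, adjusted p = 0.0194).

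The genes that hold HSCs in quiescence, *Ndn* and *Cdkn1c*, were lower by smaller amounts that did not pass the adjusted threshold. *Ndn* (chr7:62346569-62350262, plus, a single exon) had 182, 169 and 178 reads in Rpl22-/- and 229, 237 and 190 in Rpl22+/+ libraries. Scaled for depth, the groups did not overlap, at 13.9 ± 0.354 against 18.8 ± 1.11 CPM (log2 fold change -0.43, SE 0.134, interval -0.71 to -0.15, adjusted p = 0.0692). *Ndn* was below 0 under all 15 alternatives and was called in 0 of them, with adjusted p from 0.0527 to 0.20.

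*Cdkn1c* (chr7:143458339-143461050, minus) had 189, 144 and 154 reads in Rpl22-/- and 270, 190 and 175 in Rpl22+/+. The libraries came to 14.7, 12.0 and 11.7 CPM against 20.7, 15.3 and 18.2 CPM, so that the highest Rpl22-/- library lay just under the lowest Rpl22+/+ library. The log2 fold change was -0.50 (SE 0.158, interval -0.83 to -0.16, adjusted p = 0.0757). It passed under 3 of the 15 alternatives, with no filter on low counts (adjusted p = 0.0347), without Rpl22-/- replicate 1 (0.0282) and with length and GC trends removed (0.0351), and its adjusted p reached 0.303 without Rpl22+/+ replicate 1. An antisense gene, *Gm44732*, covers 30.7% of its exon bases on the opposite strand.

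**Figure D3:**
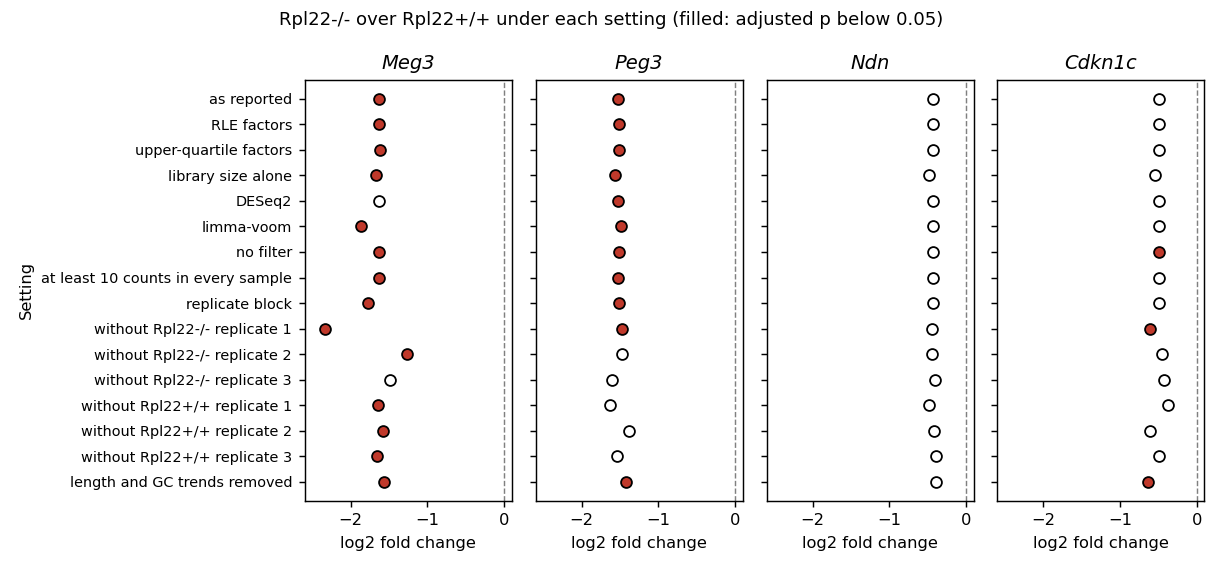
The log2 fold change, Rpl22-/- over Rpl22+/+ (x axis), of *Meg3*, *Peg3*, *Ndn* and *Cdkn1c* in the reported fit and under each of 15 alternatives (y axis), filled where the adjusted p was below 0.05. All points lie below 0, and *Meg3* moves most, from -2.34 to -1.27.

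*Grb10*, the adaptor that damps insulin and IGF1 receptors, was the most abundant of the 10 and did not pass the test. It had 2227, 2169 and 2377 reads in Rpl22-/- and 2467, 2373 and 1539 in Rpl22+/+. At 178 ± 4.03 and 180 ± 17.3 CPM the groups overlapped, and the interval of the log2 fold change, -0.20 to 0.17, was the narrowest of the 9 (adjusted p = 0.941). The sign of its value of -0.016 turned under 4 alternatives. *Igf2r*, the receptor that clears IGF2 (chr17:12682406-12769664, minus), had 539, 383 and 509 reads against 523, 496 and 505. Its libraries overlapped at 37.5 ± 5.16 and 44.2 ± 7.25 CPM (log2 fold change -0.23, interval -0.51 to 0.048, adjusted p = 0.318).

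*Mest*, a paternally expressed gene of the hydrolase family (chr6:30723547-30748465, plus), was the only 1 of the 9 with a positive value. It had 88, 78 and 78 reads in Rpl22-/- and 71, 66 and 47 in Rpl22+/+ libraries. The Rpl22-/- libraries lay above the Rpl22+/+ libraries, at 6.43 ± 0.470 against 5.21 ± 0.291 CPM, and the difference did not pass (log2 fold change 0.30, interval -0.14 to 0.73, adjusted p = 0.421). *Copg2* overlaps 23.1% of the *Mest* exon bases on the opposite strand, and its own log2 fold change was -0.089 (adjusted p = 0.579).

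*Dlk1*, a Notch-like membrane protein of the paternal copy, had 16, 23 and 19 reads in Rpl22-/- and 52, 17 and 18 in Rpl22+/+ libraries. A single library, Rpl22+/+ replicate 1, was high at 3.99 CPM, and the other five lay between 1.25 and 1.91 CPM. Its log2 fold change of -0.67 (interval -1.56 to 0.22, adjusted p = 0.370) became -0.066 without that library. *Plagl1*, a zinc finger gene known to act on other imprinted genes (chr10:13060504-13131694, plus), had 1, 4 and 2 reads against 6, 4 and 20, and was not tested. Of its reads in Rpl22+/+ libraries, 20 came from replicate 3.

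By position, 4 of the 10 genes lie on chromosome 7 and 2 on chromosome 12. *Dlk1* (chr12:109452823-109463336, plus) ends 77.7 kb before *Meg3* starts, and the log2 fold changes of the pair were -0.67 and -1.63. From the same cluster, *Dio3* had 0 reads in all libraries and *Rtl1* had 1 read in all. *H19* and *Cdkn1c* lie 0.88 Mb apart in distal chromosome 7. Beside *H19*, *Igf2* had 19, 15 and 9 reads in Rpl22-/- and 35, 24 and 23 in Rpl22+/+ libraries, and the groups did not overlap (log2 fold change -1.04, SE 0.384, adjusted p = 0.121). Beside *Cdkn1c*, *Phlda2*, a placental growth inhibitor, was at 0.056 (adjusted p = 0.893), and *Slc22a18* at -0.30 (0.407). In the cluster of *Ndn*, *Snrpn* was at -1.01 (12, 15 and 8 reads against 27, 23 and 16, adjusted p = 0.149), *Mkrn3* at -0.37 (0.459) and *Peg12* at 0.065 (0.886). Beside *Peg3*, *Usp29* had 0 reads. *Airn*, the noncoding RNA antisense to *Igf2r*, had 49, 42 and 42 reads against 51, 75 and 50 (log2 fold change -0.52, adjusted p = 0.241) and shares no exon base with it. These neighbours were named for their place in the genome, and not every gene of each cluster is given, so they do not describe the clusters as a whole.

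Of 65 other imprinted genes listed, 58 were in the table and 34 were tested. Of these, 12 had positive and 22 negative values, with a median of -0.087, and 1 was called, beside 5.57% of all genes tested. *Ube3a*, a ubiquitin ligase that is imprinted in neurons, was at 102 ± 5.32 against 126 ± 5.22 CPM (log2 fold change -0.30, SE 0.0825, adjusted p = 0.0436). This call was lost in 8 of 15 alternatives, when any 1 of the 6 libraries was left out, with the replicate block, and with length and GC trends removed, where the value was 0.0010. Without passing, *Zfp64* was at 0.38 (adjusted p = 0.0692), *Gatm*, an enzyme of creatine synthesis, at -0.31 (0.0731) and *Cd81*, a tetraspanin, at 0.26 (0.101). The genes listed as paternally expressed had 11 negative values among 14 tested, and those listed as maternally expressed 11 among 20. Counts are per gene, so the transcripts of *Gnas*, listed as paternal and at 0.20, were not told apart.

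Of 40 genes of IGF and insulin signalling, the pathway that *Igf2r* and *Grb10* act on, 32 were tested, and 15 had positive and 17 negative values (median -0.042). Of the 32, 1 was called higher and 1 lower, a share near the 5.57% called over all genes tested. *Eif4ebp1*, the translation repressor that mTOR phosphorylates, rose from 36.1 ± 1.78 to 54.6 ± 7.54 CPM (log2 fold change 0.60, SE 0.112, adjusted p = 0.00898). *Pik3cd*, the leukocyte PI3-kinase subunit, fell from 183 ± 15.1 to 137 ± 3.89 CPM (-0.41, SE 0.0859, adjusted p = 0.0143). *Eif4ebp1* kept its call under all 15 alternatives, and *Pik3cd* lost it without Rpl22-/- replicate 3 or Rpl22+/+ replicate 1 or 3 (adjusted p up to 0.0966). The insulin receptor gene *Insr* was at -0.26 (adjusted p = 0.0874) and *Mtor* at -0.21 (0.141), and neither passed.

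Of 29 genes that write, read or keep imprints, 27 were tested, 11 with positive and 16 with negative values (median -0.050). By edgeR 0 were called, with 6 at an unadjusted p below 0.05, a share near the 22.3% of all genes tested, while DESeq2 called 1 and limma-voom 0. The smallest p-values were those of the Polycomb subunit *Suz12* at -0.27 (adjusted p = 0.0662), *Arid4b* at -0.32 (0.0690) and the chromatin remodeller *Hells* at -0.32 (0.10).

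Among 7 other genes named as CDK inhibitors, *Cdkn1a* rose. This gene, which encodes p21, a p53 target, had 121, 186 and 175 reads in Rpl22-/- and 30, 21 and 25 in Rpl22+/+ libraries. Every Rpl22-/- library was above every Rpl22+/+ library, at 12.7 ± 3.06 against 2.20 ± 0.467 CPM (log2 fold change 2.54, SE 0.250, adjusted p = 7.6e-05). It kept its call under all 15 alternatives. It was the 1 called of 5 tested, beside 5.57% of all genes tested. *Cdkn1b* at -0.093 overlapped between the groups and did not pass (adjusted p = 0.712). The INK4 genes *Cdkn2c* at 0.26 and *Cdkn2d* at 0.13 did not pass, nor did *Cdkn3* at -0.26. *Cdkn3* encodes a phosphatase and belongs to neither the Cip/Kip nor the INK4 family.

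Of 46 genes known for HSC dormancy or cycling, 3 were called higher and 2 lower in Rpl22-/- HSCs. Over all genes tested, 3.28% were called higher and 2.29% lower. *Gata2*, a stem cell transcription factor, rose by a log2 fold change of 0.39 (adjusted p = 0.0190). The G1 genes *Ccnd1* (0.44, 0.0333) and *Cdk6* (0.37, 0.0380) rose as well. *Fgd5*, an HSC marker, fell by 0.41 (adjusted p = 0.0308) and *Gprasp2* fell by 0.46 (0.0484). All 5 calls were lost without Rpl22-/- replicate 3, Rpl22+/+ replicate 1 or Rpl22+/+ replicate 3, and of the 15 alternatives 11 kept *Gata2*, 10 *Cdk6*, 9 *Ccnd1*, 10 *Fgd5* and 8 *Gprasp2*. *Plk1* at 0.53 (adjusted p = 0.0592), *Egr1* at 0.68 (0.0619) and *Ccnb2* at 0.27 (0.0970) did not pass. Among cycling genes 19 of 22 had positive values (median 0.13), and among dormancy genes 12 of 24, against 6826 of all 14004 genes tested. For most of them the libraries of the groups overlapped. The Rpl22-/- libraries all lay above for 4 cycling genes and all below for 1. For dormancy genes these counts were 1 and 4, beside 13.3% above and 13.6% below over all genes tested.

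**Figure D4:**
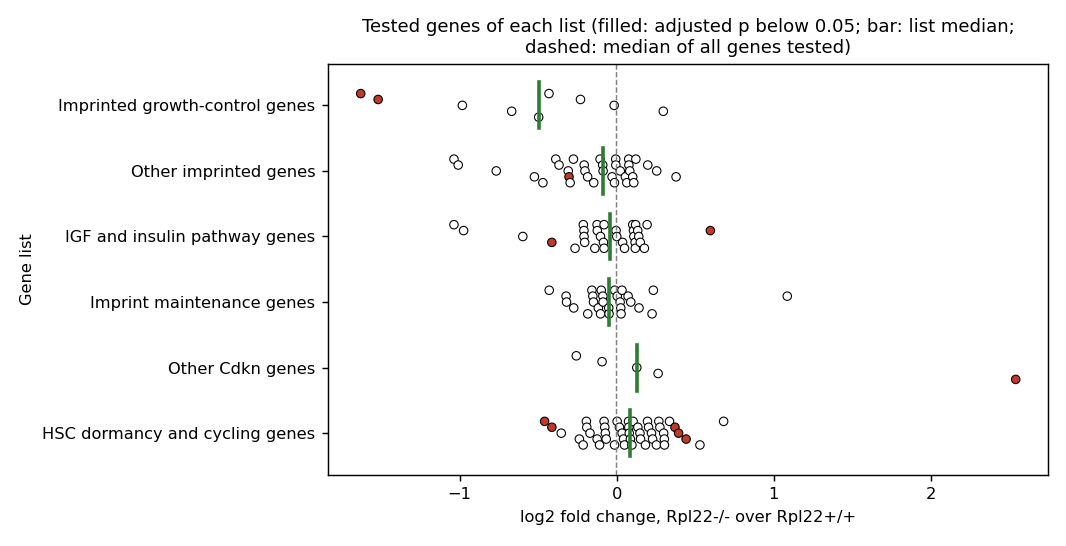
The log2 fold change, Rpl22-/- over Rpl22+/+ (x axis), of every tested gene of the 6 lists (y axis), filled where the adjusted p was below 0.05. Green bars are list medians, from -0.50 for the imprinted growth-control genes to 0.13 for the other *Cdkn* genes, and the dashed line is the median of all genes tested, -0.0068.

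Several of these genes, such as *Meg3*, *Dlk1*, *H19* and *Igf2*, are also known from stromal cells, so their levels were set beside 11 stromal markers. The sum was 67.5 to 83.2 CPM in Rpl22-/- and 82.4 to 115 CPM in Rpl22+/+ libraries. Nearly all of it came from the 3 markers tested, *Bgn*, *Col1a2* and *Pdgfrb*, and no other marker had a group mean above 1.10 CPM. *Bgn*, the largest part, was called lower (48.0 ± 4.56 against 64.5 ± 10.5 CPM, log2 fold change -0.42, adjusted p = 0.0459), a call kept in 6 of 15 alternatives. *Col1a2* (13.3 against 17.1 CPM, adjusted p = 0.256) and *Pdgfrb* (10.9 against 13.8 CPM, 0.394) did not pass. Markers at a few reads went the other way without overlap, *Col1a1* with 8, 10 and 15 reads against 5, 5 and 4 and *Sparc* with 5, 12 and 6 against 1, 4 and 0. *Lum* was at 0 in all 6 libraries, and *Col3a1* and *Lepr* did not pass 0.321 CPM in any. Within Rpl22-/- the sum was lowest in replicate 2, which also had the lowest *Meg3*, while replicate 3 had the highest sum and the middle *Meg3* value. The part of other cells in the differences was not tested, and in such bulk libraries fewer cells of a type and less RNA per cell cannot be told apart.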

How the data were processed

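RNA was measured in 6 libraries of sorted HSCs. The authors checked reads with FastQC, aligned them to mm10 with TopHat2 (2.1.1 in the submitters' processing notes) and deposited whole-number counts of reads per gene from HTSeq. The 5 summary lines of reads assigned to no gene (58.6% to 60.9% of each library) were left out, and 0 sample columns were unused. Strand setting and annotation version were not given in the sources used here. edgeR 4.0.16 (R 4.3.3) kept 14004 genes (filterByExpr, minimum count 10), scaled by TMM and compared the genotypes by the quasi-likelihood test, p-values being adjusted after Benjamini and Hochberg over these genes (threshold 0.05). The test was tried first on simulated data. SE is the size of the log2 fold change divided by the root of F. RPKM is CPM per kilobase of annotated exon (GRCm38, the assembly of mm10, in which 29042 symbols matched directly, 1871 by an older symbol and 3660 not). Alternatives numbered 15, including DESeq2 1.42.0 and limma-voom (limma 3.58.1). The length and GC alternative was chosen after seeing the data.

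The 10 genes and the lists were chosen with earlier results of these data known. Named are all 10, *Rpl22*, and of each list every called gene and the 3 next smallest p-values. Genomic neighbours, markers, *Cdkn1b* and *Gnas* are given beside them. Each mean and SD rests on 3 libraries, whose number limits the precision. Imprinted genes without a row were not analysed here, and *H19* and *Cdkn1c* had no promoter window.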

Additional observations from a re-analysis of the deposited data

How the results depend on the processing

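Of 134 log2 fold changes of the 9 tested genes under the alternatives, 120 kept direction and side of the threshold. Of the rest, 7 lost the call (*Meg3* and *Peg3*), 3 gained it (*Cdkn1c*) and 4 turned sign. Those 4 were *Grb10*, at 0.045 with length and GC trends removed and between -0.093 and 0.026 when 1 library was left out (above 0 without Rpl22-/- replicate 1 or Rpl22+/+ replicate 1 or 2). *Plagl1* gave a value only with no filter, -2.24 (adjusted p = 0.0823).

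Calls among all genes numbered 780 (459 higher), and 1422 with no filter and 432 with length and GC trends removed. Library size alone called 369 higher and 481 lower and moved the median of all genes to -0.051. Leaving out 1 library gave 127 (without Rpl22-/- replicate 3) to 1720 (without Rpl22-/- replicate 1), with 370 without Rpl22-/- replicate 2 and 206, 259 and 241 without Rpl22+/+ replicates 1, 2 and 3. Of the growth-control genes DESeq2 called 1, and 0 to 3 were called with 1 library left out. Other imprinted genes called numbered 2 with library size alone, 0 with the replicate block, 0 with length and GC trends removed, and 0 to 3 with 1 library left out. Imprint maintenance genes called numbered 2 with library size alone, 1 with DESeq2, 2 with no filter, 1 with the replicate block, and 0 to 2 with 1 library left out. IGF and insulin genes called ranged from 1 to 3 with 1 library left out, and the other *Cdkn* genes stayed at 1. Of the HSC dormancy and cycling genes, 10 were called with no filter, 3 with length and GC trends removed, and 0 to 10 with 1 library left out. Apart from the length and GC alternative, all were planned. The cause of these shifts was not tested. Correlations of same-numbered deviations were -0.103, 0.055 and 0.045, within the range of the differently numbered ones (-0.171 to 0.132). With 3 libraries per group these values cannot decide whether replicate numbers pair the libraries. With the replicate block 904 genes were called, and *Meg3* and *Peg3* kept their calls (adjusted p = 7.18e-04 and 0.0224). At this depth *H19*, *Plagl1*, *Dlk1* and *Peg3* rest on at most 52 reads per library.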
